A study of Arabidopsis thaliana with 4 samples.

Results

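The 6 genes *LTP1* to *LTP6* encode type 1 lipid transfer proteins of Arabidopsis thaliana. They were taken by their loci, namely *LTP1* (AT2G38540), *LTP2* (AT2G38530), *LTP3* (AT5G59320), *LTP4* (AT5G59310), *LTP5* (AT3G51600) and *LTP6* (AT3G08770), and every non-control probe matched to one of these loci was used. This gave 13 probes of 43603 gene probes, and 6 genes of 34290 genes and transcripts tested. The mutant was *bli-1*, the T-DNA line SAIL_107_D04 with an insertion in the *BLISTER* gene (*BLI*), and it was compared with the wild type Columbia-0 (Col-0). Whole seedlings of both genotypes were 12 days old and had grown in continuous light on Murashige and Skoog medium with sucrose, without any further treatment. Total RNA came from 2 biological replicates per genotype, and each Cy3-labelled sample had its own single color Agilent array. A single mutant allele was measured, so the values describe this line.

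Lipid transfer proteins are small secreted proteins that are held together by disulfide bridges between conserved cysteines and enclose a hydrophobic cavity, in which a fatty acid or another lipid can be bound. In plants they are found mainly in the cell walls of the epidermis, where they are associated with the cuticle, the layer of cutin and wax on aerial surfaces. Several of them are also known from responses to drought, cold, abscisic acid (ABA) and pathogens.

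All 13 probes were well above background on all 4 arrays, as marked by the scanner software, and 0 of their spots were saturated or marked as outliers. This mark was more frequent on the array of *bli-1* replicate 2 than on the other arrays. Levels below are log2 values of background-corrected, quantile-normalized intensity, averaged over the probes of a gene, and a log2 fold change is the *bli-1* mean minus the Col-0 mean. As probes differ in their efficiency, levels were compared between arrays for each gene and not between genes. Genes counted as called when the limma p after Benjamini-Hochberg adjustment was below 0.05 and the change was at least 1.5-fold. In whole seedlings, fewer cells of a type and less RNA per cell cannot be told apart. The p-values rest on 2 replicates per genotype, and an exact permutation test over the 4 arrays cannot go below 0.333.

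The *BLI* transcript itself (AT3G23980) had log2 levels of 7.38 and 7.68 in *bli-1* and 9.17 and 8.99 in Col-0. Its log2 fold change was −1.55, with an adjusted p of 0.0823 in limma. Its 2 probes gave −2.67 and −0.42, and the first was well above background on 1 of 2 *bli-1* arrays, that of replicate 2. The array of *bli-1* replicate 2 stood apart at the dim end. The 25th percentile of its intensities was 129.5 units and that of *bli-1* replicate 1 was 29, against 27 and 28.5 in Col-0. On this array 91.7% of gene spots were marked as well above background. The share was 77.4% for *bli-1* replicate 1 and 74.7% and 76.4% in Col-0, so the mark was not equally strict on all arrays. *bli-1* replicate 1 lay on a slide of its own, while *bli-1* replicate 2 shared a slide with both Col-0 arrays. The 6 shoot, 6 root and 5 epidermis markers used to check the tissue were well above background on all 4 arrays.

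Among the 6 genes, the largest differences between the genotypes were those of *LTP2*, which was 3.93-fold higher in *bli-1*, and *LTP6*, which was 4.11-fold lower. *LTP3* was higher on average, but the genotypes overlapped. *LTP1*, *LTP4* and *LTP5* differed by less than 0.3 log2 units. The test after adjustment called 0 of the 6 genes in limma, against 0.114% of all genes and transcripts. At an unadjusted p below 0.05 and a 1.5-fold change, *LTP2* was the 1 gene higher, against 2.48% of all genes, and *LTP6* the 1 gene lower, against 2.69%. The same 2 genes were at least 1.5-fold apart with no overlap between the arrays of the genotypes, which holds for 3.69% of all genes in the higher and 3.27% in the lower direction. Without a minimum fold change, 4 of the 6 genes had no overlap, compared with 44.2% of all genes. The median log2 fold change was 0.26 over the 6 genes and −0.005 over all genes.

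**Figure D1:**
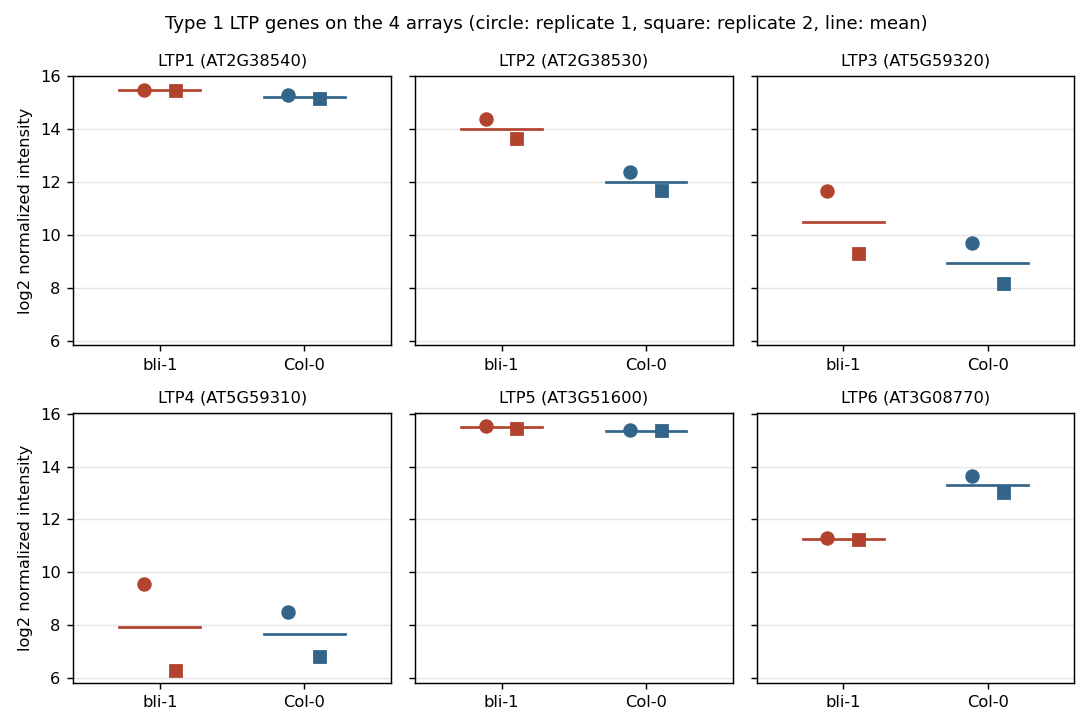
Log2 normalized intensity (y axis, the same scale in every panel) of each type 1 LTP gene on the 2 *bli-1* arrays (red, left) and the 2 Col-0 arrays (blue, right), with circles for replicate 1, squares for replicate 2 and lines for the means. *LTP2* sits higher and *LTP6* lower on both *bli-1* arrays, whereas *LTP3* and *LTP4* are spread widely within each genotype.

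*LTP2*, which encodes a protein of epidermal cell walls that is known from work on hypocotyls to be needed for an intact cuticle, was measured by 2 probes. Its log2 level was 14.36 and 13.63 in *bli-1*, against 12.37 and 11.67 in Col-0. Both *bli-1* arrays were above both Col-0 arrays, and the nearest pair of arrays was 1.26 log2 units or 2.39-fold apart. The means were 14.00 ± 0.52 in *bli-1* and 12.02 ± 0.49 in Col-0 (SD, n = 2 each), which differ by 1.98 log2 units (SE 0.35) or 3.93-fold, with a 95% confidence interval of 1.07 to 2.88. The adjusted p from limma was 0.184. *LTP2* was called with the slide as a block, where it was higher by 1.61 log2 units (adjusted p = 0.00618 from limma), and without *bli-1* replicate 1, where it was higher by 1.62 (adjusted p = 0.0178). As *bli-1* replicate 1 was alone on its slide, both fits compare 1 *bli-1* array with 2 Col-0 arrays, take the spread from Col-0 alone and are nearly the same test, and they called 16.6% and 14.9% of all genes. Without each of the other arrays *LTP2* was not called (adjusted p from 0.138 to 0.999).

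The 2 probes of *LTP2* gave nearly the same value, with log2 fold changes of 1.96 and 1.99. Before any correction, the spots of the probe A_84_P21047 had intensities of 12298 and 8982 units in *bli-1*, against 1959 and 1885.5 units in Col-0. For the probe A_84_P809041 they were 42943 and 24814 units in *bli-1*, against 6688.5 and 5856.5 units in Col-0. The separation of the genotypes was thus visible in the scanner's own intensities. The replicates of *LTP2* were not close, with replicate 1 above replicate 2 by 0.73 log2 units in *bli-1* and by 0.70 in Col-0. Of all genes, 89.7% differed less than *LTP2* between the *bli-1* replicates and 99% differed less between the Col-0 replicates.

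*LTP1*, the direct neighbour of *LTP2* on chromosome 2 and likewise a gene of the epidermis, had log2 levels of 15.48 and 15.44 in *bli-1* and 15.27 and 15.16 in Col-0. The arrays of the genotypes did not overlap, but were separated by 0.17 log2 units only. The means were 15.46 ± 0.02 in *bli-1* and 15.21 ± 0.08 in Col-0 (SD, n = 2 each), which differ by 0.25 log2 units (SE 0.13), with a 95% confidence interval of −0.08 to 0.57 and an adjusted p of 0.603 from limma. The 4 probes of *LTP1* did not give 1 direction. Of these, 3 were higher in *bli-1*, by 0.54, 0.36 and 0.28 log2 units, each without overlap. The probe A_84_P809051 was lower by 0.19 with overlapping genotypes, at 16.33 and 16.06 in *bli-1* and 16.50 and 16.27 in Col-0. The probe with 0.54 was the dimmest, with 13130 and 15618 intensity units in *bli-1* and 5572 and 9558.5 units in Col-0.

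**Figure D2:**
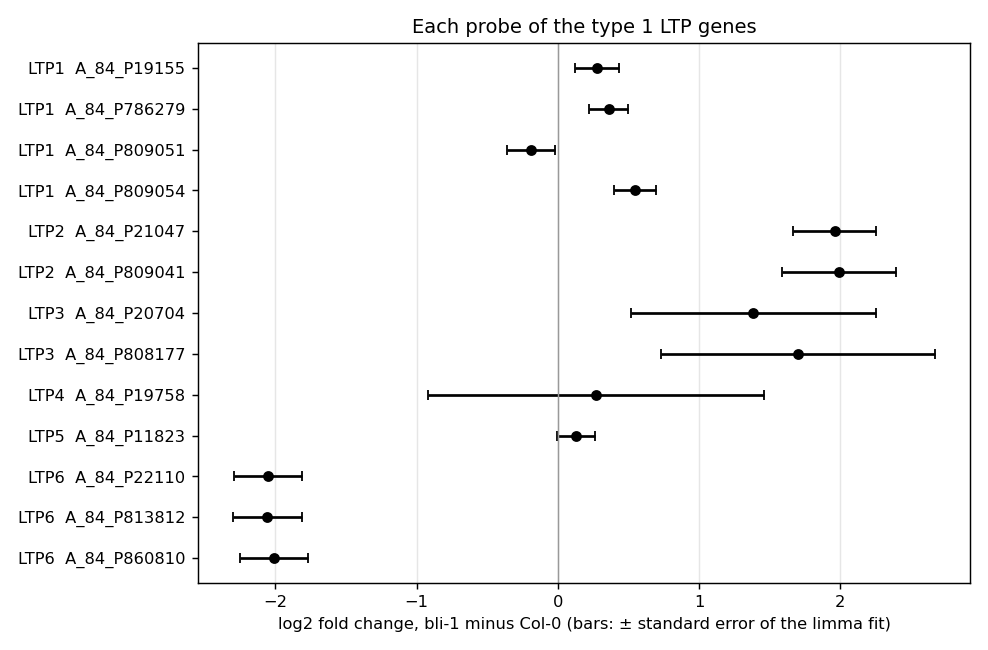
Log2 fold change of *bli-1* against Col-0 (x axis) for each of the 13 probes of the type 1 LTP genes, with bars for the standard error of the limma fit. The probes of *LTP2* and those of *LTP6* lie close together, those of *LTP1* lie on both sides of 0, and the bars of *LTP3* and *LTP4* are wide.

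*LTP1* and *LTP2* form a tandem pair with 0 annotated loci between them, and the difference between the 2 genes was taken within each array. *LTP2* minus *LTP1* was −1.11 and −1.82 log2 units in *bli-1*, against −2.90 and −3.48 in Col-0. The arrays of the genotypes did not overlap, so the pair was shifted toward *LTP2* on both *bli-1* arrays. The shift was 1.73 log2 units between means of −1.46 ± 0.50 in *bli-1* and −3.19 ± 0.41 in Col-0 (SD, n = 2 each; exact two-sided permutation test, p = 0.333, the smallest that 4 arrays allow). The probes on either side of the pair were examined as well. Of the 2 tested loci on each side, AT2G38510 was not well above background on any array, and AT2G38500, AT2G38550 and *TFIIS* (AT2G38560), which encodes a transcription elongation factor, had log2 fold changes of −0.12, −0.15 and −0.19.

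*LTP3* and *LTP4*, the tandem pair on chromosome 5, are both known to be induced by ABA, and *LTP3* was described as a target of the drought-related factor MYB96. *LTP3* had log2 levels of 11.66 and 9.29 in *bli-1*, against 9.70 and 8.17 in Col-0. *bli-1* replicate 1 was the highest array and Col-0 replicate 2 the lowest, while *bli-1* replicate 2 lay below Col-0 replicate 1. The means were 10.48 ± 1.68 in *bli-1* and 8.93 ± 1.09 in Col-0 (SD, n = 2 each), which differ by 1.54 log2 units (SE 0.92), with a 95% confidence interval of −0.86 to 3.94 and an adjusted p of 0.632 from limma. Its 2 probes gave 1.38 and 1.70. The probe A_84_P808177 had intensities of 7608 and 1628 units in *bli-1* and 1208 and 427 units in Col-0. The value for *LTP3* depended on single arrays, at 0.34 without *bli-1* replicate 1 and 2.77 without *bli-1* replicate 2.

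*LTP4*, with 1 probe, had log2 levels of 9.56 and 6.29 in *bli-1* and 8.52 and 6.80 in Col-0. The highest and the lowest array were both of *bli-1*, and the genotypes overlapped. The means were 7.93 ± 2.31 in *bli-1* and 7.66 ± 1.21 in Col-0 (SD, n = 2 each), which differ by 0.27 log2 units (SE 1.20), with an adjusted p of 0.938 from limma. The 95% confidence interval of −2.85 to 3.39 holds differences of several fold in either direction. The direction for *LTP4* turned without *bli-1* replicate 1, with a log2 fold change of −1.27, and without Col-0 replicate 2, with −0.54. Its uncorrected intensities were 801 and 96 units in *bli-1* and 220.5 and 47.5 units in Col-0. On the array of *bli-1* replicate 2, the spot of *LTP4* with 96 units was below the 25th percentile of that array, 129.5 units, whereas it was above the 25th percentile on the other 3 arrays. The spot was still marked as well above background there, as were 91.7% of gene spots on that array. Its level on that array may thus be at the floor, and this also bears on *LTP4* minus *LTP3*.

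The spread between replicates set *LTP3* and *LTP4* apart from most genes on the arrays. *LTP3* differed between replicates 1 and 2 by 2.37 log2 units in *bli-1* and by 1.54 in Col-0, where the median absolute difference of all genes was 0.22 in *bli-1* and 0.11 in Col-0. Only 17 genes and transcripts differed more than *LTP3* between the *bli-1* replicates and 18 between the Col-0 replicates. For *LTP4* the differences were 3.27 in *bli-1* and 1.72 in Col-0, and 3 genes differed more in *bli-1* and 10 in Col-0. In both genes replicate 1 was the higher one in both genotypes. This also held for the other members, though by small differences in *LTP1* and *LTP5*, and in *LTP6* by 0.08 only in *bli-1*. The labels do not tie replicates of the same number to each other.

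Within the arrays, *LTP4* minus *LTP3* was −2.10 and −3.00 log2 units in *bli-1*, against −1.19 and −1.37 in Col-0. With this processing the genotypes did not overlap, although they did for both genes taken alone. The shift of −1.27 between means of −2.55 ± 0.64 in *bli-1* and −1.28 ± 0.13 in Col-0 (SD, n = 2 each) was toward *LTP3* in *bli-1* (exact two-sided permutation test, p = 0.333, the smallest that 4 arrays allow). Under the 9 other ways of processing the arrays, this shift ran from −2.77 to −0.92 (exact permutation p from 0.333 to 0.667), and that of *LTP2* against *LTP1* from 1.73 to 2.18. For *LTP4* against *LTP3*, the exact permutation p was 0.667 with background subtraction and with the scanner's corrected signal under either scaling. In these settings another split of the arrays was at least as far apart, so the genotypes overlapped and the separation depended on the processing. Whether a probe of one gene also binds the transcript of its tandem copy was not tested. Beside the pair, *UBC7* (AT5G59300), a ubiquitin-conjugating enzyme, had a log2 fold change of 0.03 and the homeobox gene *WOX2* (AT5G59340) one of 0.14. AT5G59330, next to *LTP3*, had log2 levels of 7.20 and 6.09 in *bli-1* and 7.36 and 7.42 in Col-0, and was well above background on 1 of 2 *bli-1* arrays (log2 fold change −0.75, adjusted p = 0.604 from limma). AT5G59305 was well above background in *bli-1* but on 0 of 2 Col-0 arrays. By the means its level in *bli-1* was at least 1.23-fold higher, a bound that leaves out the spread between arrays (limma adjusted p = 0.532).

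**Figure D3:**
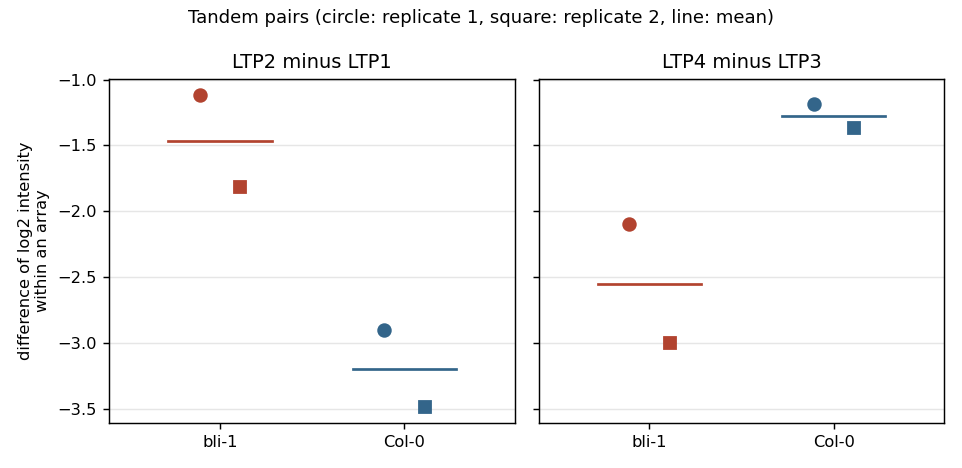
Difference of the log2 intensities of the 2 genes of each tandem pair within an array (y axis), on the *bli-1* arrays (red, left) and the Col-0 arrays (blue, right), with circles for replicate 1, squares for replicate 2 and lines for the means. *LTP2* minus *LTP1* is greater and *LTP4* minus *LTP3* smaller on both *bli-1* arrays, and for *LTP4* minus *LTP3* this separation depends on the processing. Only the shift between genotypes can be read, since probes of different genes have no common scale.

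A list of 12 ABA-induced genes was set beside *LTP3* and *LTP4*. Of these, 2 passed an unadjusted p below 0.05 and a 1.5-fold change, both higher in *bli-1*, where 2.48% of all genes passed, 0 passed in the lower direction, where 2.69% of all genes did, and 0 were called by limma after adjustment. Over the list the log2 fold changes had their median at −0.20, and 5 were positive and 7 negative. The 2 genes were *RD20* (AT2G33380), which encodes a caleosin of lipid droplets, with 10.52 and 10.84 in *bli-1* against 10.05 and 9.85 in Col-0, and the NAC factor gene *RD26* (AT4G27410), with 10.13 and 9.71 in *bli-1* against 9.16 and 9.31 in Col-0. Other genes of the list differed widely between replicates, such as *RAB18* (AT5G66400), with 11.59 and 10.13 in *bli-1* against 10.08 and 10.52 in Col-0, and *COR15A* (AT2G42540), with 9.94 and 9.38 in *bli-1* against 11.55 and 10.18 in Col-0. These were chosen after their values were seen.

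Root markers differed between the *bli-1* replicates as well. The log2 of the summed level of the 6 root markers was 14.62 and 13.53 in *bli-1*, against 14.20 and 14.04 in Col-0, a sum in which bright probes weigh most. By gene, *bli-1* replicate 1 was the highest array for 3 of the 6 markers and lay below both Col-0 arrays for the other 3, and *bli-1* replicate 2 was the lowest for 5. Of the 6, 5 were lower and 1 higher in *bli-1* by their means, with a median log2 fold change of −0.67. At an unadjusted p below 0.05 and a 1.5-fold change, 2 were lower, against 2.69% of all genes, and 0 higher, against 2.48%. These 2 were the root hair expansin gene *EXPA7* (AT1G12560, −1.18) and the nitrate transporter gene *NRT2.1* (AT1G08090, −0.996), and limma called 0 of 6. For the 6 shoot markers, which are genes of photosynthesis, the log2 of the sum was 18.07 and 18.17 in *bli-1* and 18.16 and 18.30 in Col-0. Their median was −0.05, with 3 higher and 3 lower. Rubisco activase *RCA* (AT2G39730, −0.82) and carbonic anhydrase *CA1* (AT3G01500, −0.81) passed without adjustment in the lower direction, against 2.69% of all genes. In the higher direction 0 passed, against 2.48%, and limma called 0 of 6. The part of these values in those of the *LTP* genes was not tested.

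*LTP5*, which encodes a protein known from work on pollen tube growth, had log2 levels of 15.55 and 15.42 in *bli-1* and 15.39 and 15.33 in Col-0 on its 1 probe. The genotypes were separated by 0.03 log2 units. With means of 15.48 ± 0.09 in *bli-1* and 15.36 ± 0.04 in Col-0 (SD, n = 2 each), the log2 fold change was 0.13 (SE 0.13), the 95% confidence interval −0.21 to 0.46 and the adjusted p 0.718 from limma. Scaling the arrays to their 75th percentile in place of quantile normalization gave −0.06 for *LTP5*, so its sign depended on the normalization. The locus before *LTP5* on chromosome 3 is *LTP12* (AT3G51590), another type 1 gene. Its probe was not well above background on any array, and a comparison within arrays therefore has no value. The other loci beside *LTP5*, AT3G51580, *NPU* (AT3G51610) and AT3G51620, had log2 fold changes of 0.18, 0.16 and −0.17.

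*LTP6*, on the same chromosome as *LTP5*, was the member that differed in the opposite direction. Its log2 level was 11.32 and 11.24 in *bli-1*, against 13.64 and 13.00 in Col-0. Both *bli-1* arrays were below both Col-0 arrays, and the nearest pair was 1.68 log2 units or 3.21-fold apart. The means were 11.28 ± 0.05 in *bli-1* and 13.32 ± 0.45 in Col-0 (SD, n = 2 each), which gives a log2 fold change of −2.04 (SE 0.24) or a 4.11-fold lower level, with a 95% confidence interval of −2.67 to −1.41. The adjusted p from limma was 0.101. With the slide as a block the log2 fold change was −2.08 (adjusted p = 0.0019 from limma), and without *bli-1* replicate 1 it was −2.09 (adjusted p = 0.00795). *LTP6* was called in these fits, which again rest on 1 *bli-1* array and called 16.6% and 14.9% of all genes. It was not called without *bli-1* replicate 2 (adjusted p = 0.146), Col-0 replicate 1 (0.999) or Col-0 replicate 2 (0.586). It was called with the trend and robust options of eBayes (adjusted p = 0.0497), under which 0.335% of all genes were called.

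The 3 probes of *LTP6* gave log2 fold changes of −2.06, −2.05 and −2.01, each without overlap between the genotypes. The uncorrected intensities of the probe A_84_P22110 were 4156 and 4170 units in *bli-1* and 13204 and 12456.5 units in Col-0. For the probe A_84_P860810 they were 2146 and 2144.5 units in *bli-1* and 6442 and 6124.5 units in Col-0. The *bli-1* arrays were thus close to each other for every probe of *LTP6*, and 20% of all genes differed less between the *bli-1* replicates. The Col-0 replicates of *LTP6* were 0.64 log2 units apart, and 98.8% of all genes differed less. In the uncorrected intensities the Col-0 spots of *LTP6* lay closer to each other than after normalization between arrays.

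Around *LTP6*, AT3G08750 was not well above background on any array, and the kinase gene *ATSIK* (AT3G08760) and AT3G08780 had log2 fold changes of 0.06 and −0.08. AT3G08790 was well above background on 1 of 2 *bli-1* arrays and on no Col-0 array. Over all members, 16 flanking loci were examined, and the 10 that all 4 arrays showed well above background had log2 fold changes from −0.19 to 0.18. None of the 16 passed an unadjusted p below 0.05 with a 1.5-fold change, and limma called 0. Of all genes, 2.48% passed without adjustment in the higher and 2.69% in the lower direction, and 0.114% were called. The absence of passing loci among 16 is therefore close to these shares, and 6 of the 16 were not well above background on all 4 arrays.

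**Figure D4:**
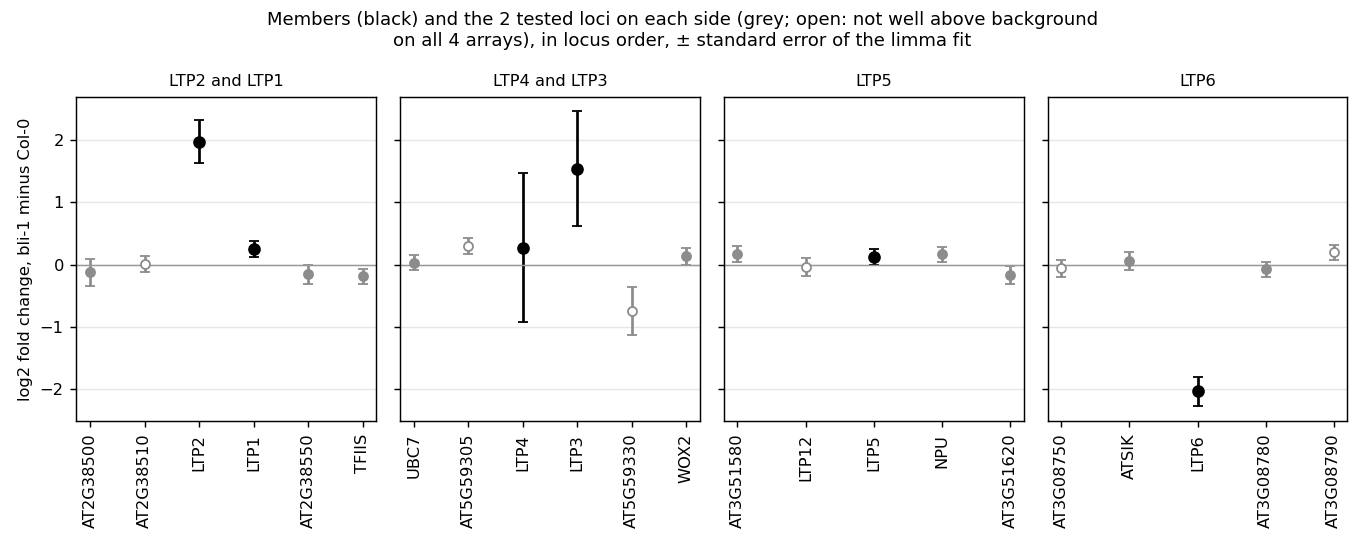
Log2 fold change of *bli-1* against Col-0 (y axis) for the type 1 LTP genes (black) and the 2 tested loci on each side of every gene or tandem pair (grey, open where not well above background on all 4 arrays), in locus order, with bars for the standard error of the limma fit. *LTP2* and *LTP6* stand away from their flanking loci, and the flanking loci that were well above background lie between −0.19 and 0.18. *LTP3* is also higher, but its bar is wide and its genotypes overlapped.

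The remaining genes named as type 1 lipid transfer proteins, *LTP7* to *LTP15*, were mostly dim in these seedlings. Of the 9 genes, 3 were well above background on all 4 arrays. *LTP10* (AT5G01870) had log2 levels of 10.26 and 10.01 in *bli-1*, against 11.12 and 10.82 in Col-0, with no overlap and a log2 fold change of −0.83 (SE 0.17, limma adjusted p = 0.237). *LTP7* (AT2G15050) had a log2 fold change of −0.33 and *LTP8* (AT2G18370) one of 0.32. *LTP10* was the 1 gene lower at an unadjusted p below 0.05 and a 1.5-fold change, against 2.69% of all genes. In the higher direction 0 passed, against 2.48% of all genes, and limma called 0 of 9, with a median of −0.04. In a list of 8 GPI-anchored and other lipid transfer proteins, 0 passed without adjustment in the higher direction, against 2.48% of all genes. In the lower direction 0 passed, against 2.69%, so few were to be expected in so short a list. The log2 fold changes ran from −0.46 to 0.22 with a median of −0.13.

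Genes that act with lipid transfer proteins in building the cuticle were counted in the same way. Of 23 genes of cutin and wax synthesis and export, 8 were lower at an unadjusted p below 0.05 and a 1.5-fold change, against 2.69% of all genes, 0 were higher, against 2.48% of all genes, and limma called 0 after adjustment. The median of the list was −0.37, with 19 members lower and 4 higher. Among the 8, *DCR* (AT5G23940), an acyltransferase of cutin synthesis, had levels of 11.29 and 10.94 in *bli-1*, against 13.16 and 12.72 in Col-0. *CUS2* (AT5G33370), a cutin synthase, had 8.63 and 8.65 in *bli-1*, against 10.48 and 10.18 in Col-0. The log2 fold changes of the others were −1.19 for the fatty acid hydroxylase gene *CYP86A4*, −1.15 for *HTH*, −0.93 for *CYP77A6*, −0.76 for the acyltransferase gene *GPAT6*, −0.68 for the alkane-forming *CER1* and −0.60 for *FDH*, a gene of very-long-chain fatty acid elongation. Of 10 regulators of the cuticle, 1 was lower without adjustment, against 2.69% of all genes. It was the MYB factor gene *MYB106* (AT3G01140), with 7.86 and 8.24 in *bli-1* against 9.55 and 9.41 in Col-0 (log2 fold change −1.43, adjusted p = 0.113 from limma). The median of the regulators was −0.08, 0 were higher, against 2.48% of all genes, and limma called 0.

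The 5 markers of the epidermis, of which *FDH* and *CER6* are also in the list of cutin and wax genes, were measured beside these genes. Their log2 summed level was 13.21 and 13.40 in *bli-1*, against 13.72 and 13.76 in Col-0, without overlap. Of the 5 markers, 4 had negative and 1 a positive log2 fold change, with a median of −0.48. *PDF1* (AT2G42840), expressed in the outermost cell layer, had a log2 fold change of −1.43. *PDF1* and *FDH* passed without adjustment in the lower direction, against 2.69% of all genes. In the higher direction 0 passed, against 2.48%, and limma called 0 of 5. The part of the epidermis markers in these values was not tested.

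For each member, the loci with the most similar profile over the 4 arrays were listed, by the Euclidean distance between mean-centred log2 levels, among 19280 loci well above background on all arrays. For *LTP2* these were *MRN1* (AT5G42600), a gene of triterpene synthesis, at a distance of 0.252 and with a log2 fold change of 1.77, and the pectin methylesterase gene *ATPMEPCRB* (AT4G02330) at 0.342. For *LTP6* they were AT4G29030 at 0.12, with 9.79 and 9.82 in *bli-1* against 12.05 and 11.46 in Col-0, and the glutathione S-transferase gene *GSTF14* (AT1G49860) at 0.175. *LTP3* was nearest to *NATA1* (AT2G39030), an acetyltransferase gene, at 0.504, and to AT2G16005 at 0.863. *LTP4* was nearest to the iron transporter gene *IRT1* (AT4G19690), at 0.83, with 9.24 and 6.98 in *bli-1* against 8.84 and 7.50 in Col-0, and to *GSTU25* (AT1G17180) at 1.11. *LTP1* and *LTP5*, which varied little, had many near profiles, the first being *FIM5* (AT5G35700) at 0.0148 and AT3G61960 at 0.0201 for *LTP1*, and *RPS14* (AT2G34520) at 0.0116 and AT1G13000 at 0.013 for *LTP5*. These distances rest on 4 arrays that the genes share.

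The log2 fold changes were computed again under 17 other settings. Some of these cannot change a member's log2 fold change and say nothing about its direction. They are the unadjusted p, the trend and robust options, the replicate block and the filter on dim probes. Those of *LTP2* lay between 1.61 and 2.35 and those of *LTP6* between −2.35 and −1.72, so both kept their direction. *LTP3* stayed positive, between 0.34 and 2.77, but its genotypes overlapped and its 95% confidence interval, −0.86 to 3.94, held both directions. *LTP4* ran from −1.37 to 1.99, *LTP1* from −0.19 to 0.30 and *LTP5* from −0.06 to 0.19. The sign of these 3 genes thus depended on the setting. As all settings use the same arrays, a kept sign does not settle the direction of a gene.

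**Figure D5:**
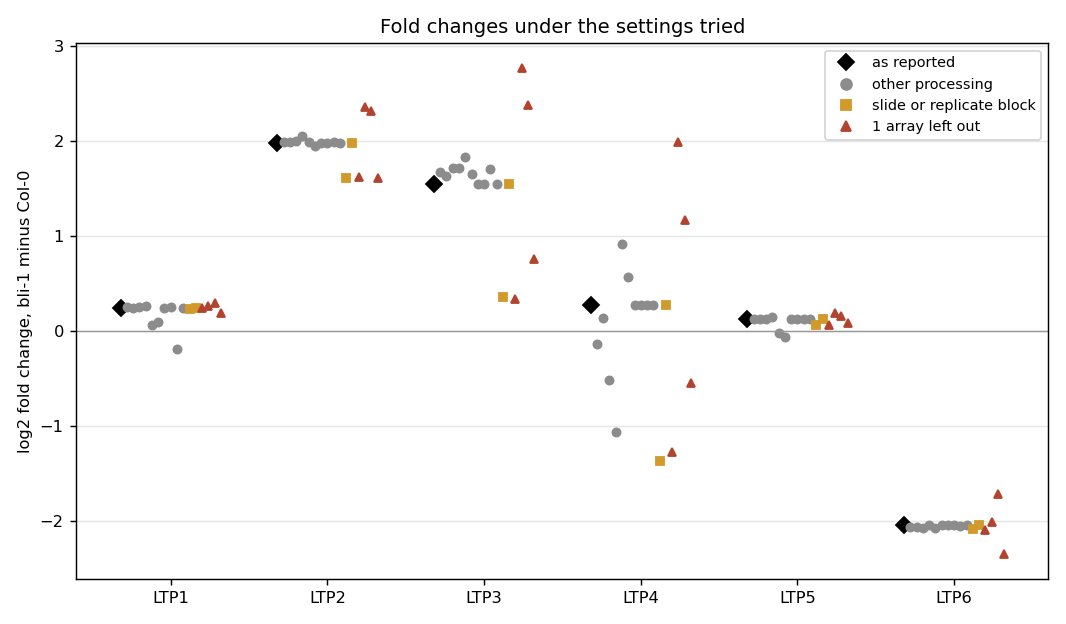
Log2 fold change of *bli-1* against Col-0 (y axis) for each type 1 LTP gene as reported (black diamonds), with other processing (grey circles), with a block for slide or replicate number (yellow squares) and with 1 array left out (red triangles). The values for *LTP2* lie between 1.61 and 2.35 and those for *LTP6* between −2.35 and −1.72, while those for *LTP4* lie on both sides of 0.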

How the data were processed

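Per the labels, Cy3-labelled whole-seedling RNA of *bli-1* and Col-0 was measured on single color arrays. The authors deposited, for each array, median intensities of spots and their local background and the scanner software's corrected signal (Agilent Feature Extraction 11.0.1.1), with other marks per spot, deposited as codes for control, dim, saturated and outlier spots. No normalization between arrays had been applied to these intensities. As in the paper's methods, which name limma but no offset, they were background-corrected (normexp, offset 50, on median intensities) and quantile normalized, using limma 3.58.1 under R 4.3.3. The calls here are not those of the paper. After adjustment, limma called 33 genes higher and 6 lower, fewer than the paper reports. The paper adjusted its p-values, but does not say whether its cut, a p below 0.05 with a 1.5-fold change, used them. Without adjustment, 850 genes were higher and 923 lower here, more than the paper reports. The paper describes *LTP2* as highly up-regulated in *bli-1*. Here *LTP2* was 3.93-fold higher and passed the cut only without adjustment. Control spots were left out, outlier spots (4 to 19 per array) were set to missing, and log2 values were averaged over the spots of a probe and the probes of a gene. A RefSeq gene table gave the locus of 34432 of the 35703 spots that carry a RefSeq accession. Each array held 43803 gene spots, with median intensities from 139.5 to 319.

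Genotypes were compared with lmFit and eBayes, with p-values adjusted after Benjamini and Hochberg over 34290 genes and transcripts, and tandem pairs with an exact permutation test over arrays. The script was tested on simulated data. A fold change against a genotype not well above background on any array is a lower bound. It sets the mean of the brighter genotype against the higher, per array, of the probe's own level and the lowest level among probes well above background. The named genes were the 6 members, *BLI*, members of the lists that passed an unadjusted p below 0.05 and a 1.5-fold change, *LTP7* to *LTP15*, the 2 tested loci on each side and the 2 nearest profiles. Outside this rule, *RAB18*, *COR15A*, *MAH1*, *CASP1* and *PHT1.1* were named after their values were seen. *CER6* was named only as a gene that the epidermis markers share with the cutin and wax genes. The lists held other type 1 LTPs, GPI-anchored and other LTPs, cuticle regulators, cutin and wax genes, ABA-induced genes, and shoot, root and epidermis markers. The members and lists were chosen with earlier results of these data known. The alternatives were other offsets, background subtraction, the scanner's corrected signal, 75th percentile scaling, a filter on dim probes, outlier spots kept, the brightest probe, eBayes with trend and robust options, a block for the slide or for the replicate number, each array left out, and an unadjusted p. The sequences of the probes and transcripts were not used here.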

Additional observations from a re-analysis of the deposited data

How the results depend on the processing

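The slide as a block, in which *bli-1* replicate 2 is in effect compared with its slide's Col-0 arrays, called 5690 genes in place of 39, 2 members among them (*LTP2* 1.61, *LTP6* −2.08), and turned *LTP4* to −1.37. With 1 array left out, limma called 0 to 5094 genes and 0 to 2 members, and the log2 fold changes ran from 1.61 to 2.35 for *LTP2*, −2.35 to −1.72 for *LTP6* and −1.27 to 1.99 for *LTP4*. The 5094 genes and 2 members, *LTP2* (1.62) and *LTP6* (−2.09), were called without *bli-1* replicate 1, and 0 genes without each of the other 3 arrays. With trend and robust options 115 genes and 1 member (*LTP6*, −2.04, adjusted p = 0.0497) were called, and at an unadjusted p 1773 genes and 2 members (*LTP2* 1.98, *LTP6* −2.04). Counts of genes were 0 with an offset of 0, with background subtraction, with the scanner's corrected signal under either scaling and with 75th percentile scaling after normexp, 12 with an offset of 16 and 115 with the filter on dim probes. *LTP4* was reversed with an offset of 0 (−0.14), background subtraction (−0.51), the corrected signal with quantile normalization (−1.06) and without Col-0 replicate 2 (−0.54). *LTP5* was reversed with 75th percentile scaling of the corrected signal (−0.0173) or after normexp (−0.0612), which moved the median of all genes to 0.27 and −0.12, and *LTP1* with its brightest probe (−0.19). The cause of these changes was not tested. The shifts within tandem pairs kept their sign under all 9 alternatives run for them. The genotypes overlapped in *LTP4* minus *LTP3* with background subtraction and with the corrected signal under either scaling. With the replicate number as a block (replicate block) 0 genes and 0 members were called. The standard error fell from 0.35 to 0.14 for *LTP2*, 0.92 to 0.25 for *LTP3*, 1.20 to 0.41 for *LTP4* and 0.24 to 0.20 for *LTP6*. It rose slightly for *LTP1* and *LTP5*. Over all genes, deviations of same-numbered arrays correlated at 0.07, so the number is not taken as a pairing, although replicate 1 was the higher one in both genotypes for every member. With 1 array of a genotype left, it is assumed to vary like the other genotype. Having 2 arrays per genotype limits all members, and *LTP4* also depends on how background is handled.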

Other observations

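*MAH1* (AT1G57750), a cytochrome P450 of wax synthesis in the list of cutin and wax genes, was chosen after its values were seen. Its log2 level was 6.07 and 12.14 in *bli-1* and 6.38 and 6.30 in Col-0, so that *bli-1* replicate 2 alone was high. Its probe was well above background on that array only, 1 of 2 in *bli-1* and 0 of 2 in Col-0. In the same array the root marker *CASP1* (AT2G36100), a Casparian strip protein, was at 11.39, against 13.01 in *bli-1* replicate 1 and 12.67 and 12.49 in Col-0. *CASP1* too was chosen after its values were seen. Of the 6 root markers, this array was the lowest for 5, but *NRT2.1* hardly differed between the *bli-1* replicates, at 6.61 and 6.55. The exception was *PHT1.1* (AT5G43350), at 12.88 in this array, against 13.67 in *bli-1* replicate 1 and 12.88 and 12.78 in Col-0. *LTP3* and *LTP4* were lower in *bli-1* replicate 2 than in *bli-1* replicate 1 by 2.37 and 3.27 log2 units. In Col-0 they were also lower in replicate 2, by 1.54 and 1.72. There the log2 of the summed root markers was 14.20 in replicate 1 and 14.04 in replicate 2. A link between these genes and the root markers was not tested.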
